A study of Mus musculus with 2 samples.

Results

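The 8 genes described here, of 32285 listed in the count matrices, encode the enzymes that turn arachidonic acid into prostaglandins and leukotrienes: Ptgs1, Ptgs2, Ptges, Alox5, Alox5ap, Lta4h, Ltc4s and Alox15. They were taken by name from the count matrices of 2 single-cell RNA-seq libraries and read in neutrophils and macrophages. Both libraries held GR1+ cells, carrying the surface antigen shared by Ly6G and Ly6C, that were positively selected with beads from 4T1 mammary carcinomas. The tumors grew in BALB/c mice of 6 to 8 weeks. 4T1P was the parental line, whose tumors do not respond to anti-PD1, and 4T1M was a line obtained from it by chemical mutagenesis, whose tumors do respond. Tumors were harvested at the pre-treatment stage, so neither group had received anti-PD1. Each tumor type gave 1 library from 5 pooled mice, a number on which the sources do not agree, and 4T1M stands for 1 mutagenized line. No p-value can therefore be given for any difference between 4T1P and 4T1M. Intervals are 95% and cover counting error only, and what belongs to the tumor type cannot be told apart from what belongs to the pool or the library.

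Arachidonic acid is released from membrane phospholipids and enters one of several enzyme branches. Cyclooxygenases, constitutive COX-1 from Ptgs1 and inducible COX-2 from Ptgs2, make the prostaglandin H2 that the synthase encoded by Ptges converts to prostaglandin E2, a mediator of fever, pain and myeloid suppression. In the other branch 5-lipoxygenase, encoded by Alox5 and helped by the membrane protein FLAP from Alox5ap, makes leukotriene A4, which Lta4h turns into the neutrophil attractant leukotriene B4 and Ltc4s into the cysteinyl leukotriene C4. Alox15 encodes the 12/15-lipoxygenase, best known in resident and alternatively activated macrophages and in the synthesis of lipid mediators that limit inflammation.

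After the limits on detected genes and mitochondrial reads, 1726 of 2947 barcodes were retained in 4T1P and 3461 of 5004 in 4T1M. Neutrophils were cells with at least 1.5% of their UMIs (unique molecular identifiers, each standing for 1 captured transcript) from S100a8 and S100a9 and under 0.5% from C1qa, C1qb, C1qc and Apoe. Macrophages had under 1.5% from the first pair and at least 0.3% from C1qa, C1qb, C1qc, Apoe, Csf1r, Cd68 and Fn1. These rules gave 612 neutrophils in 4T1P and 1686 in 4T1M, with median depths of 3054.5 and 2957.5 UMIs, and 798 and 976 macrophages, with median depths of 9727 and 9213.5 UMIs. Neutrophil markers that the rule did not use summed to 22965 and 18775 UMIs per 1000000 UMIs of the class (CPM) in the neutrophils and to 664 and 747 CPM in the macrophages. Macrophage markers outside the rule summed to 5597 and 5070 CPM in the macrophages and to 355 and 483 CPM in the neutrophils, or 6.35% and 9.54% of their macrophage level. That share is given below as a reference for macrophage transcripts in neutrophil barcodes. Whether neutrophils also express some of these markers was not tested. The libraries shared 5 barcode sequences, 3 of them among the retained cells of both, and 11 and 53 cells met the neutrophil and macrophage markers at once and entered neither class.

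All 8 genes were protein-coding with matching identifiers in the GENCODE vM21 annotation of GRCm38. Alox5ap (chromosome 5, 149264767 to 149288153) and Ltc4s (chromosome 11, 50236461 to 50238616) each overlap a gene on the opposite strand that the matrices also list, Gm19719 and Gm26542. Whether the counting used strand is not given in the sources used here, so the values of these 2 members carry that uncertainty. RefSeq promoter entries on GRCm38.p6, each reaching from 250 bases before the gene start to 50 bases into the gene, were found for 6 members. The promoters of both cyclooxygenase genes are shown because the transcript of one was abundant in both cell classes and that of the other was largely limited to macrophages. Capitals mark matches, on either strand, to 6 short motifs searched by their letters or name.

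Ptgs2, chr1:150099781-150100080, plus strand: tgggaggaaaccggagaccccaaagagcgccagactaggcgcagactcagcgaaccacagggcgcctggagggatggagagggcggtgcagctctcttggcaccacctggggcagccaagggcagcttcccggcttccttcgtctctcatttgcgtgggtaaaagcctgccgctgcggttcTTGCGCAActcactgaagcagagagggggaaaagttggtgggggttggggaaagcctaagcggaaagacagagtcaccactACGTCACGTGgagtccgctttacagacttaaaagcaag

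Ptgs1, chr2:36230176-36230475, plus strand: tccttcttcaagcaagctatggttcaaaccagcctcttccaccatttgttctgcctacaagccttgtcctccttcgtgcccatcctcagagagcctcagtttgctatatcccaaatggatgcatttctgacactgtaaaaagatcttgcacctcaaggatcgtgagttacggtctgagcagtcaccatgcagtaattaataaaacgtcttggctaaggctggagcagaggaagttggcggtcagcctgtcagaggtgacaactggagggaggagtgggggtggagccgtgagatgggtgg

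The Ptgs2 window held the C/EBP motif TTGCNNAA, 69 to 62 bases before the start. It also held the core TGACGT of the cyclic AMP response element at bases 13 to 18 of the gene and the E-box CACGTG at bases 17 to 22, the last 2 sharing bases. Of all promoter windows of the same length, 10.8% held the C/EBP motif, 7.51% the cyclic AMP core and 7.15% the E-box. The Ptgs1 window and those of Ptges, Alox5, Ltc4s and Lta4h matched none of these, nor the AP-1 motif TGANTCA (in 7.81% of all windows), the TATA box TATAAA (13.6%) or the NF-kB motif (4.79%). These are matches of letters in one window and were not tested as binding sites.

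Of the prostaglandin genes, Ptgs2 was abundant in both, Ptgs1 was a macrophage transcript, and Ptges was close to the limit of detection. Levels below are in CPM, the UMIs of a gene over those of all genes, in all cells of that class and library, and they are not comparable in size between genes.

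Ptgs1 had 1245 UMIs in the macrophages of 4T1P and 1400 in those of 4T1M, or 142 and 150 CPM. A UMI was seen in 45.4% and 45.1% of the macrophages, and in 11% and 11.4% after each cell was thinned to 1000 UMIs. The log2 ratio of 4T1M over 4T1P was 0.08 (-0.03 to 0.19). In neutrophils Ptgs1 had 23 and 70 UMIs, or 9.19 and 10.6 CPM. That was 6.47% and 7.10% of its macrophage level, a share close to that of the macrophage markers in neutrophil barcodes. Whether these UMIs came from the neutrophils or from macrophage transcripts was not tested. T or NK-like cells, with median depths of 5640 and 5556 UMIs, held 1 UMI and none.

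Ptgs2 was high in both classes and both libraries. In neutrophils it had 1940 UMIs in 4T1P and 6265 in 4T1M, or 775 CPM (741 to 810) and 952 CPM (929 to 976), the value of 4T1M being the higher. The log2 ratio was 0.30 (0.22 to 0.37), short of the 1.5-fold used as the call. It fell to -0.07 after thinning and to -0.02 without the top 10% of cells by UMIs in each class and library, so its direction was not kept under these settings. The share of neutrophils with a Ptgs2 UMI was 62.6% in 4T1P and 58.5% in 4T1M, and after thinning 39.1% (35.2 to 43.0) and 37.9% (35.6 to 40.3). In macrophages the gene had 9395 and 9792 UMIs, or 1072 and 1048 CPM, with a log2 ratio of -0.03 (-0.07 to 0.01). Of the macrophages, 49.1% and 55.4% held a UMI, 29.3% and 31.4% after thinning, and single macrophages reached 232 and 194 UMIs. The thinned share in T or NK-like cells was 1.35% and 4.26%, far below both classes.

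Ptges was sparse. Its level was 2.40 and 4.41 CPM in neutrophils, from 6 and 29 UMIs, and 5.48 and 4.92 CPM in macrophages, from 48 and 46 UMIs. The log2 ratio between the macrophages of the libraries was -0.15 (-0.77 to 0.46), an interval that includes no change and a 1.5-fold difference in the lower direction. A neutrophil difference was not detectable at this depth, with a ratio of 0.88 (-0.41 to 2.44).

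**Figure D1:**
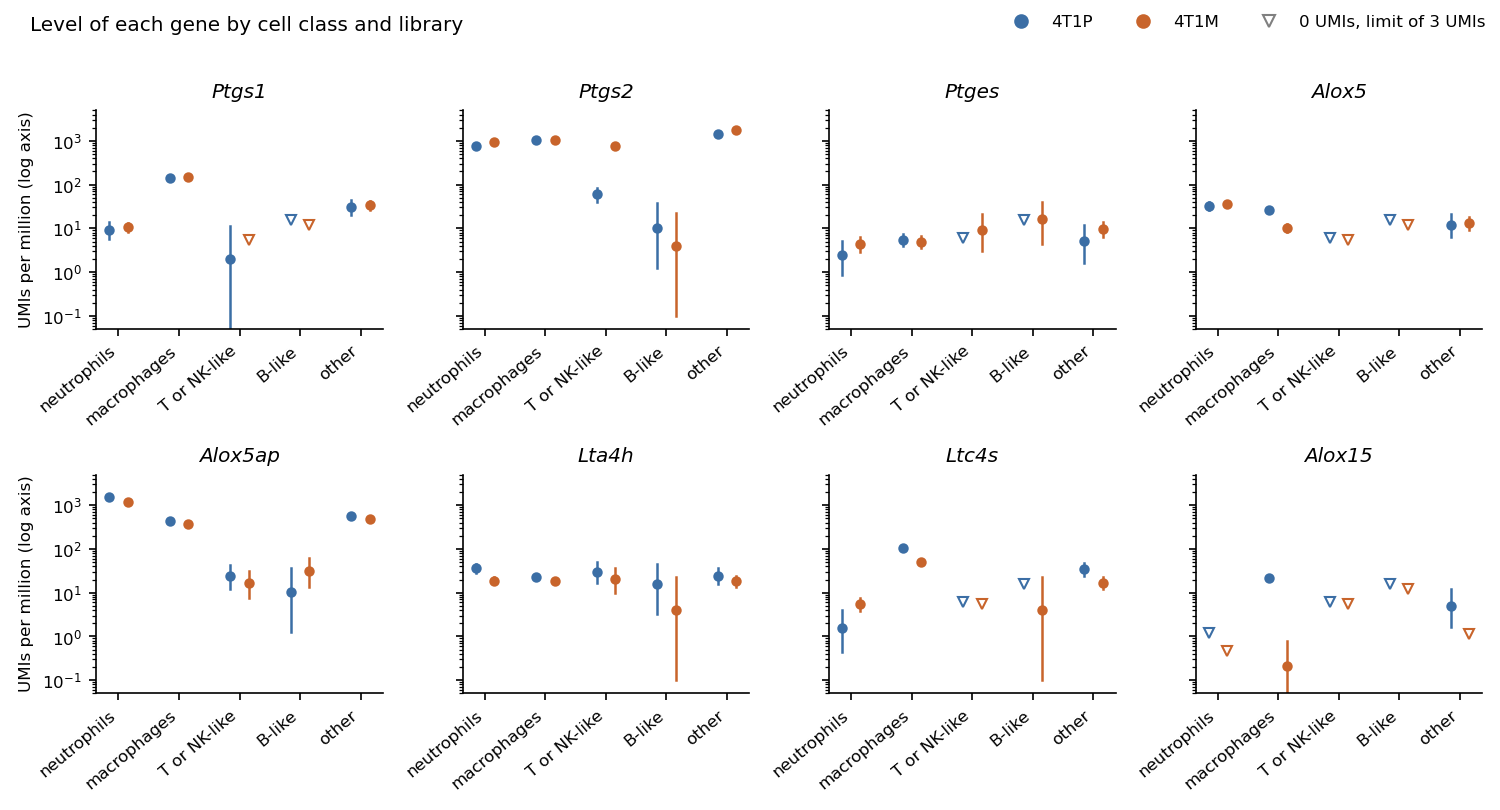
Level of each of the 8 genes in CPM, on a log axis, by cell class, with 4T1P and 4T1M side by side. Points carry 95% Poisson intervals, and open triangles mark sums of 0 UMIs drawn at the limit of 3 UMIs. Ptgs2 lies near 1000 in neutrophils and macrophages of both libraries, Alox5ap is highest in neutrophils, and Alox15 is seen in the macrophages of 4T1P at 22.2 and of 4T1M at 0.214.

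Of the leukotriene genes, Alox5ap was higher in neutrophils and Ltc4s in macrophages, and Alox5, Ltc4s and Alox15 were lower in the macrophages of 4T1M than in those of 4T1P. Alox5ap had 3919 UMIs in the neutrophils of 4T1P and 7842 in those of 4T1M, or 1566 and 1192 CPM, and 82.5% and 78.2% of the cells held a UMI. After thinning the shares were 60.3% (56.3 to 64.2) and 55.5% (53.1 to 57.9). The log2 ratio was -0.39 (-0.45 to -0.34), so the level was 1.31-fold lower in 4T1M, short of the call. In macrophages the level was 438 and 367 CPM, from 3840 and 3432 UMIs, with a log2 ratio of -0.25 (-0.32 to -0.19). In T or NK-like cells a UMI was found in 1.35% and 4.21% of cells, against 78.2% and 76.2% of macrophages.

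Alox5 had 83 and 239 UMIs in neutrophils, or 33.2 and 36.3 CPM, a log2 ratio of 0.13 (-0.23 to 0.51). In macrophages it had 226 UMIs in 4T1P and 95 in 4T1M, or 25.8 CPM (22.5 to 29.4) and 10.2 CPM (8.23 to 12.4). The macrophage level was thus 2.54-fold lower in 4T1M (1.99 to 3.26), and a UMI was seen in 18.5% of macrophages against 7.17%. After thinning the shares were 2.20% (1.29 to 3.50) and 1.17% (0.586 to 2.09), from 17 and 11 cells, with overlapping intervals. Alox5 was not seen in the T or NK-like cells of either library.

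Lta4h, the leukotriene A4 hydrolase, had 90 UMIs in the neutrophils of 4T1P and 124 in those of 4T1M, or 36 and 18.8 CPM, and was 1.91-fold lower in 4T1M. Few cells held many of these UMIs. The 90 UMIs lay in 34 neutrophils, 1 of them with 17, and 73.3% of them in the 10 neutrophils with most. In 4T1M the 124 UMIs lay in 68 cells, and 46.0% of them in 10. Without those 10 cells of each library the level was 10.5 CPM in both and the log2 ratio was 0.0049 (-0.69 to 0.74), in place of -0.93 (-1.34 to -0.52). These cells were chosen by their Lta4h count, and 10 are a larger part of 34 cells than of 68. The same step raised the neutrophil log2 ratios of Ptgs1, from 0.21 to 1.33, and of Alox5, from 0.13 to 0.42. It thus cannot decide whether a few cells made the Lta4h difference. The call was also lost without the top 10% of cells by UMIs, at -0.30, and after thinning, at -0.53. Macrophages held 22.6 and 18.1 CPM, from 198 and 169 UMIs, a log2 ratio of -0.32 (-0.63 to -0.02). T or NK-like cells held 15 and 11 UMIs, and 13.5% and 11.6% of them had one.

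Ltc4s, the leukotriene C4 synthase, was a macrophage transcript. It had 924 UMIs in the macrophages of 4T1P and 475 in those of 4T1M, or 105 CPM (98.7 to 112) and 50.8 CPM (46.4 to 55.6). The level was 2.07-fold lower in 4T1M (1.85 to 2.32). With a mitochondrial limit of 5% the log2 ratio went from -1.05 to -0.58 (-0.81 to -0.35), which ended the call. The share of macrophages with a UMI was 31.7% against 19.2%, and after thinning 8.68% (6.79 to 10.9) against 4.37% (3.15 to 5.88). Neutrophils held 4 and 36 UMIs, 1.60 and 5.47 CPM, or 1.52% and 10.8% of the macrophage level, below the 6.35% of the macrophage markers in 4T1P and close to their 9.54% in 4T1M, so no neutrophil expression was read from them. T or NK-like cells held none.

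Alox15 had 195 UMIs in the macrophages of 4T1P and 2 in those of 4T1M, or 22.2 CPM (19.2 to 25.6) and 0.214 CPM (0.0259 to 0.773). The level was 104-fold lower in 4T1M (28.4 to 864), a log2 ratio of -6.70. With no upper limit on detected genes the log2 ratio was -3.37 (-4.01 to -2.80), from 324 and 26 UMIs. In 4T1P the UMIs lay in 41 of 798 macrophages, 5.14%, and 57.9% of them in 10 cells, the highest with 22. In 4T1M 2 of 976 macrophages, 0.205%, held 1 UMI each. Both neutrophil samples had 0 UMIs, which allows a UMI in up to 0.490% of cells in 4T1P and 0.178% in 4T1M, and the macrophage level of 4T1P was at least 18.6-fold higher than the limit of 3 UMIs over the neutrophils of that library. T or NK-like cells held none.

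Counted together, 8 members reached 50 UMIs over the macrophages of both libraries. Of these, 0 were higher and 3 were lower in 4T1M by 1.5-fold or more: Alox15, Alox5 and Ltc4s. Of all 9874 genes tested in macrophages, 4.03% were higher and 4.08% lower, and the median log2 ratio was -0.29 over the members and -0.03 over all genes. In neutrophils 5 members were tested, of which 0 were higher and 1, Lta4h, was lower. Of all 6465 genes tested there, 9.81% were higher and 3.12% lower, with medians of 0.13 and 0.05. These counts compare 2 libraries and are a description.

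**Figure D2:**
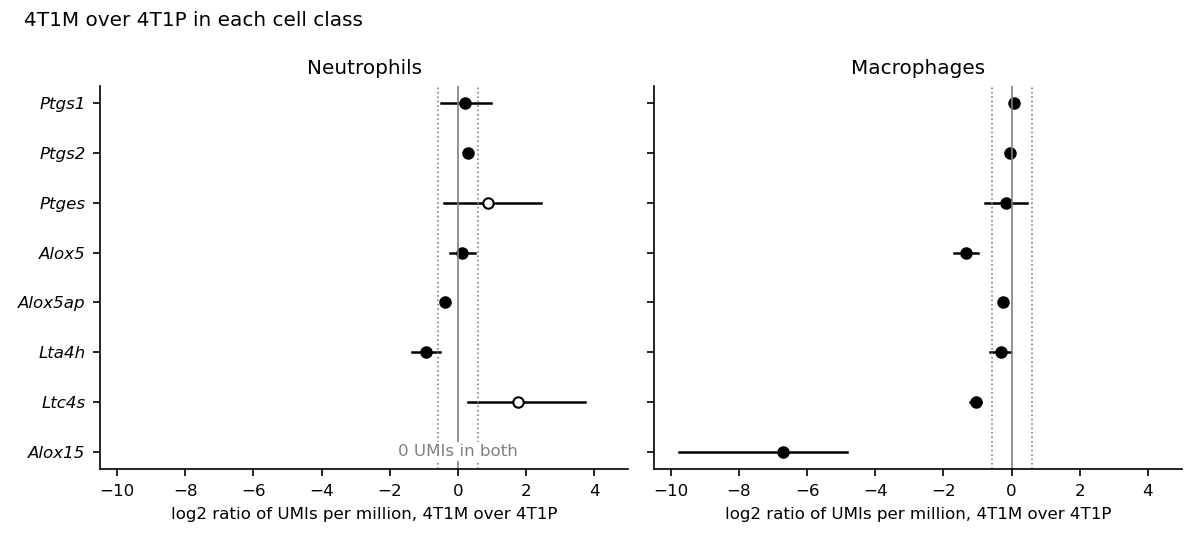
Log2 ratio of the level in 4T1M over that in 4T1P for each gene, in neutrophils and in macrophages, with 95% intervals from the counts. Dotted lines mark 1.5-fold and open points mark genes under 50 UMIs. In macrophages Alox15 (-6.70), Alox5 (-1.34) and Ltc4s (-1.05) lie below the lower line, and Ptgs1 and Ptgs2 lie near 0.

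Of the markers of other cells, Pf4 moved with the macrophage differences. Pf4, a chemokine of platelets that macrophages also express, was at 571 CPM in the macrophages of 4T1P and at 236 CPM in those of 4T1M, whereas the other genes of the platelet list were at 2.89 CPM or less, with Gp9 and Gp1bb at 0. The part of Pf4-expressing cells in the differences was not tested. Of 8 basophil or mast cell markers only Kit was seen, at 1.48 and 1.82 CPM, and Cpa3, Mcpt8, Ms4a2 and Fcer1a were at 0 in both libraries. Eosinophil markers summed to 1.94 and 3.53 CPM, with Epx and Prg2 at 0. Tumor epithelial markers summed to 31.4 and 36.4 CPM in the macrophages. In the neutrophils, where Lta4h was lower in 4T1M, they summed to 76.3 CPM in 4T1P and 18.4 CPM in 4T1M. B cell markers were also lower in 4T1M neutrophils, at 23.2 and 4.86 CPM, as were dendritic cell markers, at 15.6 and 0.760 CPM. Eosinophil markers were higher there, at 9.99 and 16.4 CPM. The part of these transcripts in the Lta4h difference was not tested.

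Between the classes, 7 members reached 50 UMIs in each library. Ptgs1 and Ltc4s, 2 of them, were at least 1.5-fold higher in macrophages in both libraries, by 15.5 and 14.1-fold for Ptgs1 and by 65.9 and 9.29-fold for Ltc4s. Alox5ap was the 1 member higher in neutrophils in both, by 3.57-fold in 4T1P and 3.24-fold in 4T1M. Of 8832 genes tested, 58.2% were higher in macrophages and 13.4% in neutrophils. The class totals differ in makeup, and with TMM factors the split was 40.8% against 25.3%, the scaling moving every ratio toward neutrophils by 0.68 and 0.74 on the log2 scale. The order of Ptgs2 depended on this. By CPM it was higher in macrophages, with log2 ratios of 0.47 (0.40 to 0.54) in 4T1P and 0.14 (0.09 to 0.18) in 4T1M, and with TMM factors it was higher in neutrophils, at -0.22 and -0.60, as it was in both libraries after thinning. By CPM Alox5 was lower in macrophages than in neutrophils of 4T1M, at -1.84 (-2.20 to -1.49), whereas in 4T1P the interval, -0.73 to 0.02, included no difference. With TMM factors or DESeq2 size factors Alox5 was at least 1.5-fold higher in neutrophils in both libraries. By CPM the macrophage level of Lta4h was below the neutrophil level in 4T1P, at -0.67 (-1.04 to -0.30). In 4T1M the classes were level, at -0.06 (-0.40 to 0.29). With TMM factors or DESeq2 size factors Lta4h was at least 1.5-fold higher in neutrophils in both libraries. Without the top 10% of cells by UMIs the sign turned in both libraries, to 1.2 (0.47 to 2.01) in 4T1P. Lta4h was then at least 1.5-fold higher in macrophages in both, so its order between the classes depended on the setting.

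Inside the neutrophils, Ptgs2 of the cyclooxygenase branch and Alox5ap and Alox5 of the 5-lipoxygenase branch followed opposite gradients. S100a8 and S100a9, abundant alarmins of neutrophils, define the class but are not members, and their share of UMIs was used to order the cells. Ptgs2 was lower at each step, with 1689 CPM in 4T1P neutrophils at 1.5 to 5%, 1134 CPM at 5 to 10% and 380 CPM above 10%. In 4T1M the same steps were 1640, 1146 and 447 CPM. Alox5ap was higher at each step, with 554, 848 and 2108 CPM in 4T1P and 605, 767 and 1760 CPM in 4T1M. Alox5 was also highest above 10%, with 12.8, 16.0 and 44.9 CPM by step in 4T1P and 20.4, 27.8 and 50.1 CPM in 4T1M. Its values below 10% rested on 6 and 8 UMIs in 4T1P and on 37 and 46 in 4T1M, with overlapping intervals in each. Lta4h was highest above 10% too, at 54.1 and 27.6 CPM. The CPM totals include S100a8 and S100a9, which lowers other genes where their share is high. With both genes left out of the totals, Ptgs2 was at 1739 and 1693 CPM at 1.5 to 5% and at 491 and 572 CPM above 10%. Alox5ap was then at 570 and 624 CPM and at 2724 and 2251 CPM. Cells above 10% made up 50.2% of the neutrophils of 4T1P and 38.9% of those of 4T1M, so the order moved together with the differences of Ptgs2 and Alox5ap between the libraries, and its part in them was not tested.

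**Figure D3:**
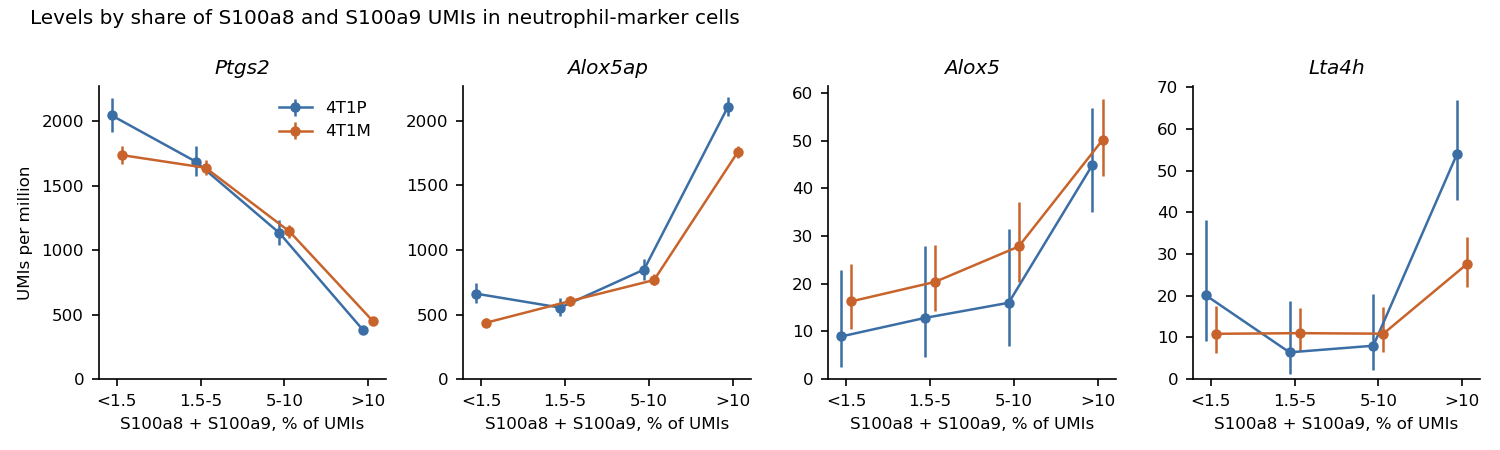
Levels of Ptgs2, Alox5ap, Alox5 and Lta4h in CPM by the share of a cell's UMIs from S100a8 and S100a9, with 95% Poisson intervals, for 4T1P and 4T1M. The range below 1.5% holds the cells outside both classes with more neutrophil than macrophage marker UMIs. Above 10% Ptgs2 is at 380 and 447, its lowest, and Alox5ap at 2108 and 1760, its highest.

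The rule for neutrophils left out cells with less S100a8 and S100a9. Of the 209 and 673 cells in no class, 61.2% and 74.4% were below 1.5% and had more neutrophil than macrophage marker UMIs. Ptgs2 reached 2046 CPM in these cells of 4T1P and 1739 CPM in those of 4T1M, above every range inside the class in both libraries. Alox5ap stood at 661 and 437 CPM there.

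Gene scores for known neutrophil programs showed the same division. Cells were ranked by a score after thinning to 1000 UMIs, and the top 10% over both libraries was compared, on all UMIs, with the other cells of the class. A minimum of 2 UMIs and ties made some of these ranges smaller or larger than 10%. These are ranges of a score and not cell types. The granule score sums genes of granule proteins made early in neutrophil maturation, such as Camp, Ltf and Ngp, and its top range held 68 and 170 neutrophils, with 17 and 33 more lying 1 UMI below it. Ptgs2 stood at 153 CPM in that range against 988 CPM in the other neutrophils of 4T1P, and at 282 against 1114 CPM in 4T1M. Alox5ap stood at 2732 against 1166 CPM and at 2073 against 979 CPM. Alox5 was also higher there, at 68.9 against 20.9 CPM and 79.0 against 26.0 CPM. Ptgs1 stood at 21.9 against 4.83 CPM in 4T1P, from 14 and 9 UMIs. In 4T1M it stood at 9.39 against 10.9 CPM. Lta4h showed the widest contrast of these genes, at 114 against 9.12 CPM in 4T1P and 61.8 against 8.49 CPM in 4T1M, and this range held 81.1% and 63.7% of all its neutrophil UMIs. Outside it, the Lta4h log2 ratio between the libraries was -0.10 (-0.94 to 0.80), and inside it -0.89 (-1.36 to -0.41). The cells of the granule range were also deeper, with median depths of 7332.5 and 5361.5 UMIs against 2918 and 2838, and the part of depth was not tested.

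The inflammatory score, of genes such as Il1a, Tnf and Cxcl2, gave the reverse picture. Ptgs2 stood at 2328 CPM in its top range against 726 CPM in the other neutrophils of 4T1P, and at 1965 against 839 CPM in 4T1M. Alox5ap stood at 325 against 1605 CPM and at 413 against 1278 CPM. This range held 3.92% of the neutrophils of 4T1P and 12.4% of those of 4T1M. Along the interferon score, of genes such as Ifit1 and Isg15, Ptgs2 differed by less than the call in both libraries, with log2 ratios of 0.49 and 0.38 in favor of the top range. Alox5ap was lower there, at -0.77 and -0.66, and was not called when the top 25% was used in place of the top 10%. Lta4h was lower too, at -2.90 and -1.41, from 1 and 5 UMIs in the top range, and was called with either range.

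For Ptgs2 and Alox5ap the opposite gradients were also seen in single cells. After thinning, 369 and 933 neutrophils held an Alox5ap UMI, and Ptgs2 was seen in 33.3% (28.5 to 38.4) of these in 4T1P and 31.7% (28.7 to 34.8) in 4T1M. Of the neutrophils without Alox5ap, 47.7% (41.3 to 54.2) and 45.7% (42.1 to 49.3) held Ptgs2. For Alox5 the libraries differed in direction, on overlapping intervals. In 4T1P Alox5 was seen in 0.837% (0.102 to 2.99) of neutrophils with Ptgs2 and 2.95% (1.48 to 5.22) of those without. In 4T1M the shares were 3.13% (1.93 to 4.80) and 2.39% (1.56 to 3.51). Among the genes higher in neutrophils with Alox5ap than in those without, Ifitm6, Camp and Retnlg led, at log2 ratios of 2.42, 2.32 and 2.04 in 4T1P and 2.50, 1.97 and 1.89 in 4T1M, followed by R3hdm4 and Ly6g. Ltf, Camp and Ngp, all granule protein genes, led beside Lta4h, at 4.14, 3.84 and 4.14 in 4T1P and 3.50, 3.35 and 3.29 in 4T1M, from 10 and 20 cells, with Ifitm6 and Anxa1 after them. Ngp and Lcn2 led beside Alox5, at 1.35 and 0.62 in 4T1P and 2.11 and 0.67 in 4T1M, followed by S100a11, Ifitm2 and Retnlg. Only genes with at least 30 thinned UMIs in the cells with the member were ranked, 33 for Lta4h and 45 for Alox5. Camp, Ltf, Ngp and Lcn2 are also genes of the granule score, so these ranks are no separate support for its contrasts.

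**Figure D4:**
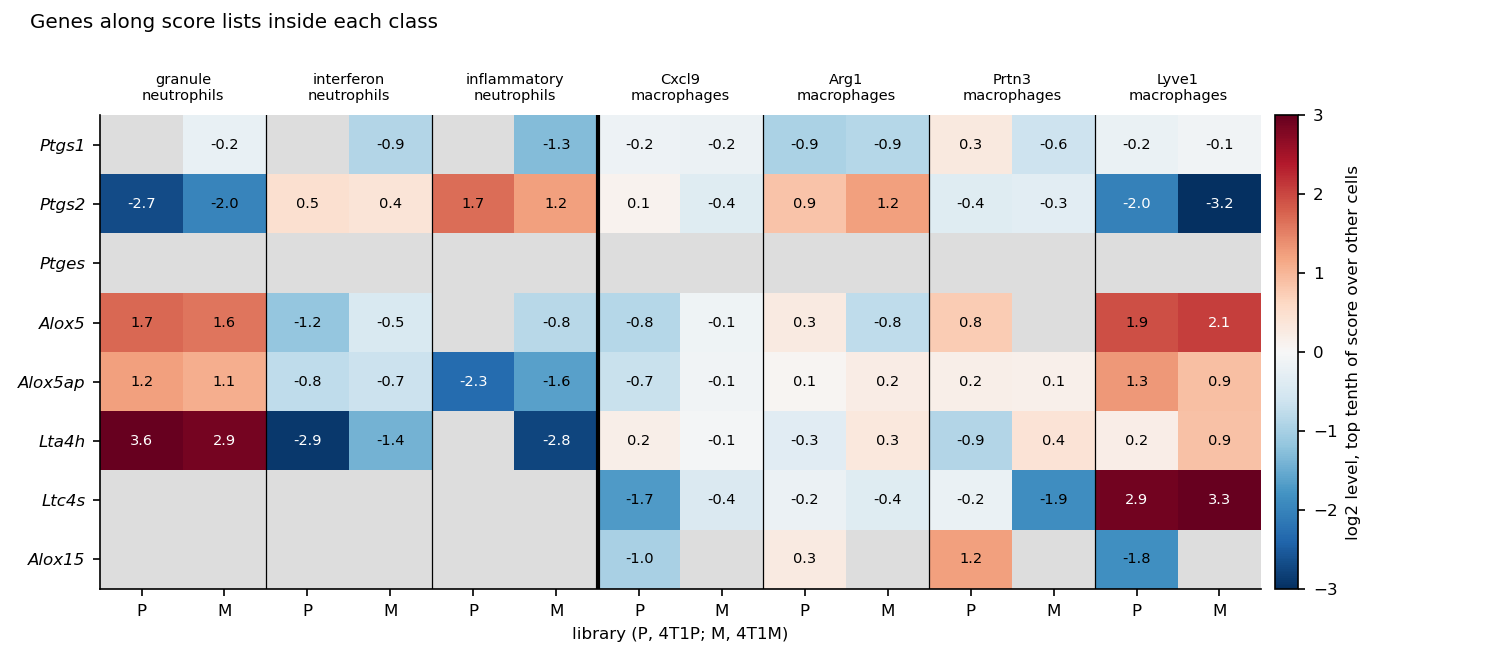
Heat map of the log2 ratio of each gene's level in the top range of a score over the other cells of the class, by library (P for 4T1P, M for 4T1M). Grey marks genes under 50 UMIs or without a UMI in the top range. In the granule score Ptgs2 (-2.69 and -1.98) and Alox5ap (1.23 and 1.08) take opposite signs, and in the Lyve1 score Ptgs2 (-2.03 and -3.21) and Ltc4s (2.89 and 3.28) do.

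Macrophages divided along other lines, with Ptgs2 and Ltc4s at opposite ends of the Lyve1 score. The Lyve1 score sums Lyve1, Cd163, Folr2, Timd4 and Cbr2, genes of resident-like tissue macrophages. Its top range, of cells with at least 2 thinned UMIs from the list, held 44 macrophages in 4T1P and 17 in 4T1M, 5.70% and 1.81% of those thinned, and 77 and 33 more lay 1 UMI below. Ltc4s stood at 578 CPM in that range against 78.0 CPM in the other macrophages of 4T1P, and at 441 against 45.3 CPM in 4T1M. Alox5 stood at 85.9 against 22.5 CPM and at 40.9 against 9.69 CPM, the value for the 17 cells resting on 5 UMIs. Alox5ap was higher too, at 1003 against 406 CPM and 678 against 363 CPM, while Ptgs2 was lower, at 275 against 1119 CPM and 114 against 1061 CPM. After thinning, Ptgs2 was seen in 31.3% (20.6 to 43.8) of 4T1P macrophages with Ltc4s and in 29.1% of those without. In 4T1M the shares were 31.7% (18.1 to 48.1) and 31.4%. The opposition was thus not seen in single cells, at 67 and 41 cells with Ltc4s.

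The Lyve1 range held 29.4% of the Ltc4s UMIs of 4T1P macrophages and 11.5% of those of 4T1M. With these cells left out, the Ltc4s level was still 1.72-fold lower in 4T1M, at a log2 ratio of -0.79 (-0.97 to -0.61), and Alox5 was 2.32-fold lower, at -1.21 (-1.59 to -0.84). Alox15 stood at -6.72 without them. The 3 macrophage calls were still made outside the Lyve1 range, that of Ltc4s at a smaller size. The range held only 1.55% of the Alox15 UMIs of 4T1P, so leaving it out could hardly change that call. The 77 and 33 cells lying 1 UMI below the range stayed among the others. The part of Lyve1-expressing cells in the differences was therefore not tested. Inside the range Ltc4s had a log2 ratio of -0.39 (-0.84 to 0.04). In the top range of the score of Cxcl9, Cxcl10, Gbp2, Gbp2b and Gbp5 Ltc4s was at 35.5 CPM in 4T1P and 39.2 CPM in 4T1M, a log2 ratio of 0.14 (-0.44 to 0.74), and in the other macrophages at 116 and 52.7 CPM, a ratio of -1.14 (-1.31 to -0.97).

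**Figure D5:**
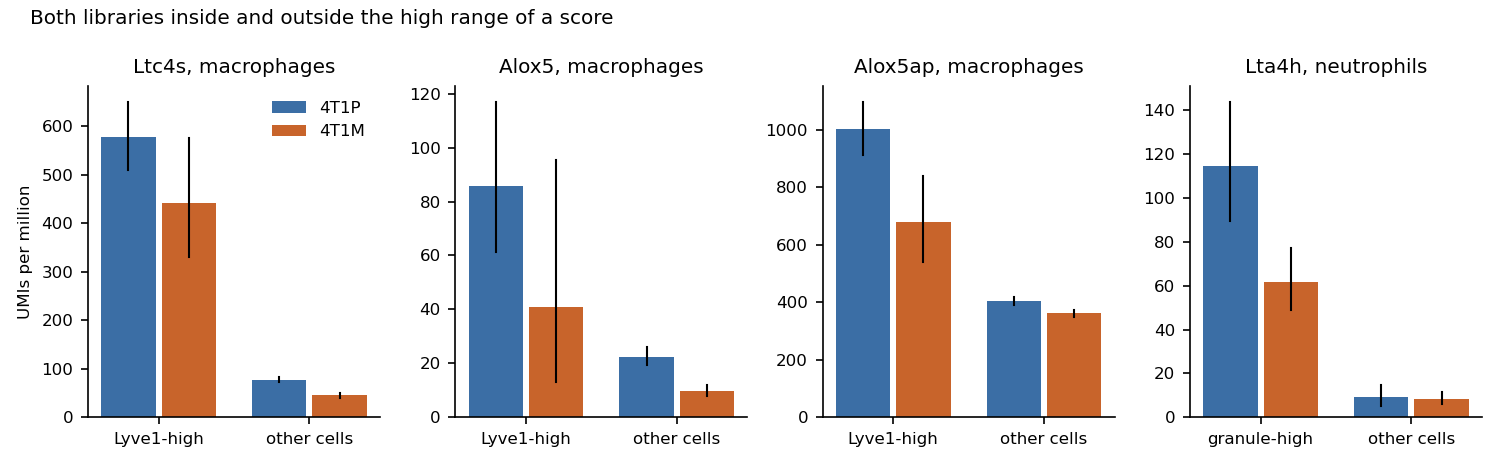
Levels in CPM, with 95% Poisson intervals, in the top range of a score and in the other cells, for 4T1P and 4T1M. Ltc4s, Alox5 and Alox5ap are split by the Lyve1 score in macrophages and Lta4h by the granule score in neutrophils. Outside the top range Ltc4s is at 78.0 and 45.3 in the libraries, and Lta4h at 9.12 and 8.49.

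The Arg1 score, of Thbs1, Mmp12, Arg1, Sdc1 and Spp1, marked the macrophages with most Ptgs2. The gene stood at 1776 CPM in the top range against 979 CPM in 4T1P, and at 2118 against 904 CPM in 4T1M. Ptges, the next enzyme, moved the same way on few counts, at 15.3 against 4.16 CPM from 16 UMIs in the range and at 18.9 against 3.05 CPM from 21. Ptgs1 was lower in this range, at log2 ratios of -0.94 and -0.86, and was not called with the top 25%. Over both classes, 33 pairs of gene and score had enough UMIs in each library, of which 8 were higher and 6 lower in the top range in both. Of all 42359 pairs of a gene outside the list and a score, 4.24% were higher and 8.65% lower by the same fold in both libraries. For 4 of the scores the top 25% gave another range of cells, and there 8 of 10 calls remained and 0 changed sign. For the other scores, Lyve1 among them, the minimum of 2 UMIs gave the same cells, so their calls could not change.

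Of the genes that accompanied Ptgs2, Ltc4s and Ptgs1 in macrophages, only Thbs1 belonged to a macrophage score list. Macrophages with a Ptgs2 UMI after thinning, 226 and 295 cells, had more Thbs1, Inhba, Areg, Cxcl3 and Il6 than those without, at log2 ratios of 3.48, 3.39, 2.52, 3.93 and 1.98 in 4T1P and 3.49, 2.77, 2.51, 2.11 and 2.05 in 4T1M. Of these, Thbs1 is also a gene of the Arg1 score. Macrophages with Ltc4s, 67 and 41 cells, had more Wfdc17, Selenop, Ccl6, Ccl9 and Mrc1, at 2.60, 1.54, 1.5, 1.40 and 1.18 in 4T1P and 1.60, 1.94, 1.39, 1.28 and 1.81 in 4T1M. Selenop, a selenium carrier, and Mrc1, the mannose receptor, are known from tissue macrophages. Beside Ptgs1 the leading genes were Pde4b and Ccl12, at 0.75 and 0.62 in 4T1P and 0.63 and 0.66 in 4T1M, followed by Pmepa1, Ly86 and Serinc3.

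The Alox15 cells of 4T1P were described further, by genes chosen after their values were seen. In 4T1P 28 macrophages held 3 or more Alox15 UMIs, 175 in all, and their median depth was 18819.5 UMIs against 9023 in the 757 macrophages without. Areg, an epidermal growth factor receptor ligand, stood at 440 CPM in the 28 cells against 96.0 CPM, Slpi, a protease inhibitor, at 735 against 196 CPM, and Il6 at 323 against 93.8 CPM. Slpi is also among the neutrophil markers outside the rule, and S100a8, a gene of the neutrophil rule, stood at 458 against 228 CPM. The part of depth and of neutrophil transcripts in these contrasts was not tested. Prtn3, which encodes proteinase 3, stood at 181 against 30.3 CPM. Mmp12, a macrophage elastase, stood at 215 against 1242 CPM and Cxcl9 at 14.1 against 151 CPM. The genes of the Arg1 score were mixed in these cells. Sdc1 was lower, like Mmp12, at 10.0 against 28.8 CPM, whereas Spp1 was higher, at 5342 against 2905 CPM. Arg1 stood at 2865 against 2353 CPM and Thbs1 at 265 against 237 CPM. Lyve1 had 1 UMI in the 28 cells, at 2.01 CPM against 79.5 CPM. Cd163 and Cbr2 of the Lyve1 score were lower too, at 22.1 against 86.8 CPM and 10.0 against 49.9 CPM. Folr2 and Timd4 of that score were nearly level, at 92.4 against 97.1 CPM and 8.04 against 7.72 CPM. In the top range of the score of Prtn3 and Cxcl14 in 4T1P, Alox15 stood at 48.3 against 20.6 CPM, a log2 ratio of 1.23 (0.54 to 1.87). The genes of this list were chosen with earlier results of these data known, so the value is a description and no separate support.

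Over the 10 sums of class by library, the patterns nearest to each member were read as Pearson correlations of log2 levels across 8293 genes. The points share libraries, depth and class markers, so the values are descriptions. Ptgs1 was nearest to P2ry12 (0.995), C1qb (0.993) and Ms4a7 (0.989), of which C1qb belongs to the macrophage rule. Ptgs2 was nearest to Arrb1 (0.981), Abi1 (0.977) and Mxi1 (0.976), and Alox5ap to Nfam1 (0.992), with Ap5s1 and Sat1 next. Alox5 was nearest to Pira2 (0.976), Pygl (0.968) and Gm50022 (0.966), and Ltc4s to B4galt6 (0.984), Cmtm3 (0.978) and Vps35 (0.977). The nearest genes of Lta4h (Arhgap9, 0.905), Alox15 (Fcrls, 0.920) and Ptges (Plpp5, 0.878) were less close.

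The rest of the pathway was read from 5 lists of 64 genes. They were named arachidonate release, other prostanoid enzymes, other leukotriene and lipoxygenase genes, eicosanoid transporters and eicosanoid receptors. A place in a list does not give the reaction of a gene. In neutrophils 24 of these were tested, 4 were higher and 0 lower in 4T1M, with a median log2 ratio of 0.17, where 9.81% and 3.12% of all neutrophil genes were higher and lower. Pla2g4a, the cytosolic phospholipase A2 that supplies arachidonic acid, stood at 6.39 CPM in 4T1P and 13.4 CPM in 4T1M. These values came from 16 and 88 UMIs, with a log2 ratio of 1.06 (0.29 to 1.93). In macrophages Pla2g4a stood at 68.0 and 73.6 CPM, and the part of macrophage transcripts in its neutrophil values was not tested. Plaa, a phospholipase A2 activating protein, stood at 10.8 and 19.3 CPM in neutrophils. The others, Mgll and Cysltr1, had under 100 UMIs and are named after their values were seen, as is Gpr18. In macrophages 32 were tested, 2 were higher and 1 lower, with a median of 0.08, where 4.03% and 4.08% of all macrophage genes were. Cyp4f18, a leukotriene B4 hydroxylase, was at 25.8 CPM in 4T1P and 52.3 CPM in 4T1M, Gpr18 was higher on under 100 UMIs, and Ptges2, another prostaglandin E synthase, was at 7.87 and 5.14 CPM.

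By level, the leading genes of these lists in neutrophils were Pla2g7, at 435 and 437 CPM, Cotl1 at 304 and 317 CPM, Fpr2 at 282 and 337 CPM, Cyp4f18 at 253 and 298 CPM and Mgst1 at 237 and 253 CPM. In macrophages they were Cotl1 at 693 and 646 CPM, Pla2g7 at 396 and 452 CPM, Ptges3 at 184 and 177 CPM, Ptger4, a receptor for prostaglandin E2, at 120 and 161 CPM, and Hpgds, the hematopoietic prostaglandin D synthase, at 120 and 139 CPM. Of these, none differed by 1.5-fold between the libraries apart from Cyp4f18 in macrophages.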

How the data were processed

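GR1+ cells of 4T1P and 4T1M tumors were profiled with the 10x Genomics system, 1 library each. The authors deposited filtered matrices of UMI counts per gene and barcode, made with Cell Ranger 4.0.0 on the mm10 build per the labels, with no normalization. A barcode was kept when it had 500 to 5000 genes and mitochondrial genes gave no more than 10% of its UMIs, the kept cells, holding 12948585 UMIs in 4T1P and 19302483 in 4T1M. No doublets were removed. Cells in neither class with at least 3 UMIs from T and NK cell or B cell markers were called T or NK-like or B-like. For each class the counts of a gene were added up and divided by those of all genes, giving CPM with exact Poisson intervals. Ratios have exact conditional intervals and shares exact Clopper-Pearson intervals. PCR duplicates were collapsed by UMI, and intervals cover counting error only. A gene was tested for size from 50 UMIs in both groups together, and 1.5-fold was the call. A pseudocount of 0.5 was added only where a count was 0, except for correlations, on log2(CPM + 5) over genes with at least 200 UMIs. Thinning drew 1000 UMIs per cell with a fixed seed and left out 35 and 51 shallower cells. Genes named beside the members were other pathway genes past the fold with at least 100 UMIs, the 5 with the highest level per class, the 3 nearest by correlation, and the 5 with the highest smaller ratio in cells with a member against cells without (at least 30 thinned UMIs). For Alox15 this rule gave Arg1, Fn1, Spp1, mt-Nd4 and Rpl30 from 12 cells of 4T1P alone. The members and gene lists were chosen with earlier results of these data known. The scripts were tested on simulated data. Alternatives were TMM factors (edgeR 4.0.16), size factors (DESeq2 1.42.0), a lower UMI minimum, other cell limits, stricter classes and thinning. Python 3.11.15, numpy 2.4.6, scipy 1.17.1, pandas 2.3.3, matplotlib 3.10.9 and R 4.3.3 were used. One macrophage score is not reported here.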

Additional observations from a re-analysis of the deposited data

Results flagged for a closer look

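Ltc4s took opposite directions in the 2 classes. The log2 ratio of 4T1M over 4T1P was 1.78 (0.30 to 3.73) in neutrophils, from 4 and 36 UMIs, and -1.05 in macrophages. With 1 library for each tumor type the difference between the classes was not tested, and the neutrophil values were 1.52% and 10.8% of the macrophage level, where macrophage markers outside the rule stood at 6.35% and 9.54%.

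Among barcodes above 5000 detected genes, which entered no comparison, Ptges stood at 9.75 CPM (7.32 to 12.7) in 4T1P, from 54 UMIs, against 5.48 CPM in the macrophages of that library.

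In the same range of barcodes Alox15 stood at 12.3 CPM (7.87 to 18.3) in 4T1M, from 24 UMIs in 4 of 48 barcodes, where the retained macrophages of 4T1M had 2 UMIs. In 4T1P it stood at 23.5 CPM, from 130 UMIs in 16 of 133 barcodes.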

How the results depend on the processing

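No p-value exists for any comparison, and 1 library per tumor type limits every statement about the tumors. Members under 50 UMIs in a class, such as Ptges and Ltc4s in neutrophils, could not be called at this depth. Of 50 counts recomputed with other settings 43 stayed within 1.5 times their value. The number of members higher in neutrophils than in macrophages rose from 1 to 3 with TMM factors and to 3 with DESeq2 size factors. Both settings added Alox5 and Lta4h. With a mitochondrial limit of 5% the number rose to 2, adding Alox5. Of all genes tested, 25.3%, 27.5% and 14.5% were higher in neutrophils under these settings, against 13.4% under the main one. The number higher in 4T1M neutrophils rose from 0 to 2 with a minimum of 10 UMIs, adding Ptges and Ltc4s. Of all neutrophil genes 17.0% were then higher, against 9.81% under the main setting. The number lower in 4T1M neutrophils fell from 1 to 0 without the top 10% of cells by UMIs and to 0 after thinning. Of all neutrophil genes 3.77% and 4.79% were lower under these settings, against 3.12% under the main one. The number lower in 4T1M macrophages fell from 3 to 1 after thinning, since Alox5 and Alox15 then had under 50 UMIs. Of all macrophage genes 5.73% were then lower, against 4.08% under the main setting. Of 217 single ratios 30 changed sign, 13 of them of Ptgs2 and 28 of them of ratios under 1.5-fold or under 50 UMIs. The 2 others were Lta4h between the classes of 4T1P, to 1.2 without the top 10% of cells by UMIs, and Ptges in the same comparison, to -1.34 after thinning, from 2 and 1 UMIs. The cause was not tested. With a mitochondrial limit of 5% the macrophage ratio of Ltc4s was -0.58, just short of 1.5-fold, and with no upper limit on detected genes that of Alox15 was -3.37. Further alternatives, 3 in number, were chosen after seeing the data, namely leaving out the 10 cells with most UMIs of a gene, the granule range and the Lyve1 range, and of their 10 values 4 stayed, 5 moved and 1 changed sign, the neutrophil ratio of Lta4h, to 0.0049. Leaving out those 10 cells also raised the neutrophil ratios of Ptgs1 and Alox5, so the Lta4h change cannot be read as particular to that gene. No paired analysis was possible because each tumor type had 1 pooled library.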

Other observations

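Among T or NK-like cells Ptgs2 had 30 UMIs in 4T1P and 417 in 4T1M, or 60.0 and 766 CPM. A single barcode held 28 of the first and another 410 of the second, the latter with 17297 UMIs in all. Without these barcodes 2 and 7 UMIs remained, or 4.22 and 13.3 CPM. The barcode of 4T1M with 410 Ptgs2 UMIs also held the 5 Ptges UMIs of its class. Among the cells in no class Alox15 had 5 UMIs in 4T1P and 0 in 4T1M.

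Macrophages with an Ltc4s UMI after thinning held Alox5ap in 50.7% of cells in 4T1P, against 30.9% of those without Ltc4s. In 4T1M the shares were 34.1% and 29.5%.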
